A study of Mus musculus with 14 samples.

Results

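The ribonuclease A family was described across 7 mouse tissues from counts of 20-base signature tags. Members were the genes whose deposited title names the ribonuclease A (RNase A) family or angiogenin, with the counts of their tags of class codes 1 to 4 summed per gene cluster. The rule found 10 of 22221 gene clusters. Of these, 9 encode secreted ribonucleases of the family (Rnase1, Rnase4/Ang, Rnase6, Rnase12, Ear1/Ear2, Ear11, Ear12, Ang2 and Ang4), and 1, Rnh1, encodes the cytosolic inhibitor that binds them and has angiogenin in its title. The clusters Ear1/Ear2 and Rnase4/Ang each hold accessions of a pair of genes. Ear11 is named Rnase2a in RefSeq. A further 4 clusters with family titles (Ear6, Ear5, Rnase10 and a second Ear2 cluster) had tags under other codes only, and were not counted as members.

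Every library came from a C57BL6 mouse tissue, with 1 female and 1 male library each of stomach, liver, pancreas, parotid gland, bone marrow, hippocampus and spinal cord, 14 in all. The labels give no treatment, age or number of animals per library, so the p-values below measure only the spread between these libraries. The female liver library is labelled right lobe and the male one left lobe, so lobe and sex cannot be told apart there. The RNA came from bulk tissue, in which fewer cells of a type and less RNA per cell cannot be told apart.

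Library totals ran from 2194028 to 3834568 counts, of which 1922511 to 3460794 were assigned to genes. Levels are gene counts scaled to parts per 1e6 (CPM), and a mean ± SD is that of the female and the male library (n = 2). Where no count was seen, up to 3 are allowed for, or 0.867 to 1.56 CPM depending on the library. The summed markers of hepatocytes, pancreatic acinar cells, parotid acinar cells, gastric cells, oligodendrocytes, neutrophils and eosinophils were each highest in both libraries of liver, pancreas, parotid gland, stomach, spinal cord and, for the last 2, bone marrow. The summed neuronal markers were higher in spinal cord than in hippocampus, mostly through Nefl, while Syn1 was higher in hippocampus. The stomach pair stood apart from the other pairs: 25.8% of the 14682 tested genes were called different between its female and male libraries, against at most 0.0204% in any other tissue, and the 3 gastric markers summed to 239862 CPM in one and 87898 CPM in the other. Each such test takes its spread from the other pairs, so the stomach pair enters the spread in every tissue but its own. The shares thus rest on different spreads, and low shares elsewhere do not measure how alike those pairs are.

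Ribonucleases of this family are small secreted proteins that cut RNA, held in shape by disulfide bonds. Rnase1 is the digestive ribonuclease of the pancreas. The Ear genes, a rodent branch that has multiplied, encode granule proteins of eosinophils, and some of them are also made by macrophages. Angiogenin (Ang) is a weak ribonuclease known for promoting blood vessel growth and for cutting transfer RNA under stress, Rnase4 prefers to cut after uridine, and Rnase6 is an antimicrobial member of myeloid cells.

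The tags below carry most of the counts of the members described here, and show which clusters have a tag for each gene. Each starts with the DpnII site, in capitals, and reads 5′ to 3′.

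Rnase1, first tag: GATCcctctcttgctgtaga
Rnase1, second tag: GATCattcattcttcgcata
Ear1/Ear2: GATCttttctaattaataaa
Rnase4: GATCaccaatgcatataaaa
Ang: GATCcctcccactctggctc
Rnh1: GATCtctggctctgggtgtc
Rnase12: GATCtccagggatatgtgga

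The first Rnase1 tag had 82642 counts and the second 18295. The Ear1/Ear2 tag had 36826 counts, and the files assign it to the pair of genes as 1 cluster. Rnase4 (3000 counts) and Ang (1107 counts) lie in 1 cluster but have a tag each, so that their levels could be read apart. The Rnh1 tag had 2559 counts. All 48 tags that differ from the first Rnase1 tag by 1 base outside the DpnII site were seen, with 3.31% of its counts between them. For the Ear1/Ear2 tag, 47 of 48 were seen, with 2.86% of its counts. Of these neighbours, 39 and 46 had no gene assigned in the files.

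Across the tissues the family divided by member. Rnase1 was highest in pancreas, Ear1/Ear2, Rnase6 and Rnase12 in bone marrow, and Rnase4/Ang in liver, while Rnh1 was present in every library. Of the 10 members, 6 had enough counts to be tested (Rnase1, Ear1/Ear2, Rnase4/Ang, Rnh1, Rnase6 and Rnase12). With edgeR's quasi-likelihood test, the fitted log2 level of a tissue was compared with the average of the fitted log2 levels of the remaining 6. A call needed a Benjamini-Hochberg adjusted p under 0.05 over all 14682 tested genes and a fold of at least 2. Tissues near 0 counts pull that average down, so a tissue can be called higher at a CPM below the mean CPM of the others. Rnase1 in stomach and parotid gland and Ear1/Ear2 in spinal cord are such cases. Of 42 pairs of member and tissue, 22 were called, 10 higher and 12 lower. These include Rnase6 and Rnase12 in bone marrow, which passed the filter on low counts through that tissue alone. Over all tested genes the share called in either direction was 9.57% in pancreas, 15.0% in parotid gland, 21.8% in stomach, 28.5% in liver, 34.0% in bone marrow, 35.9% in spinal cord and 40.9% in hippocampus, and the members' calls are read against these shares.

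**Figure D1:**
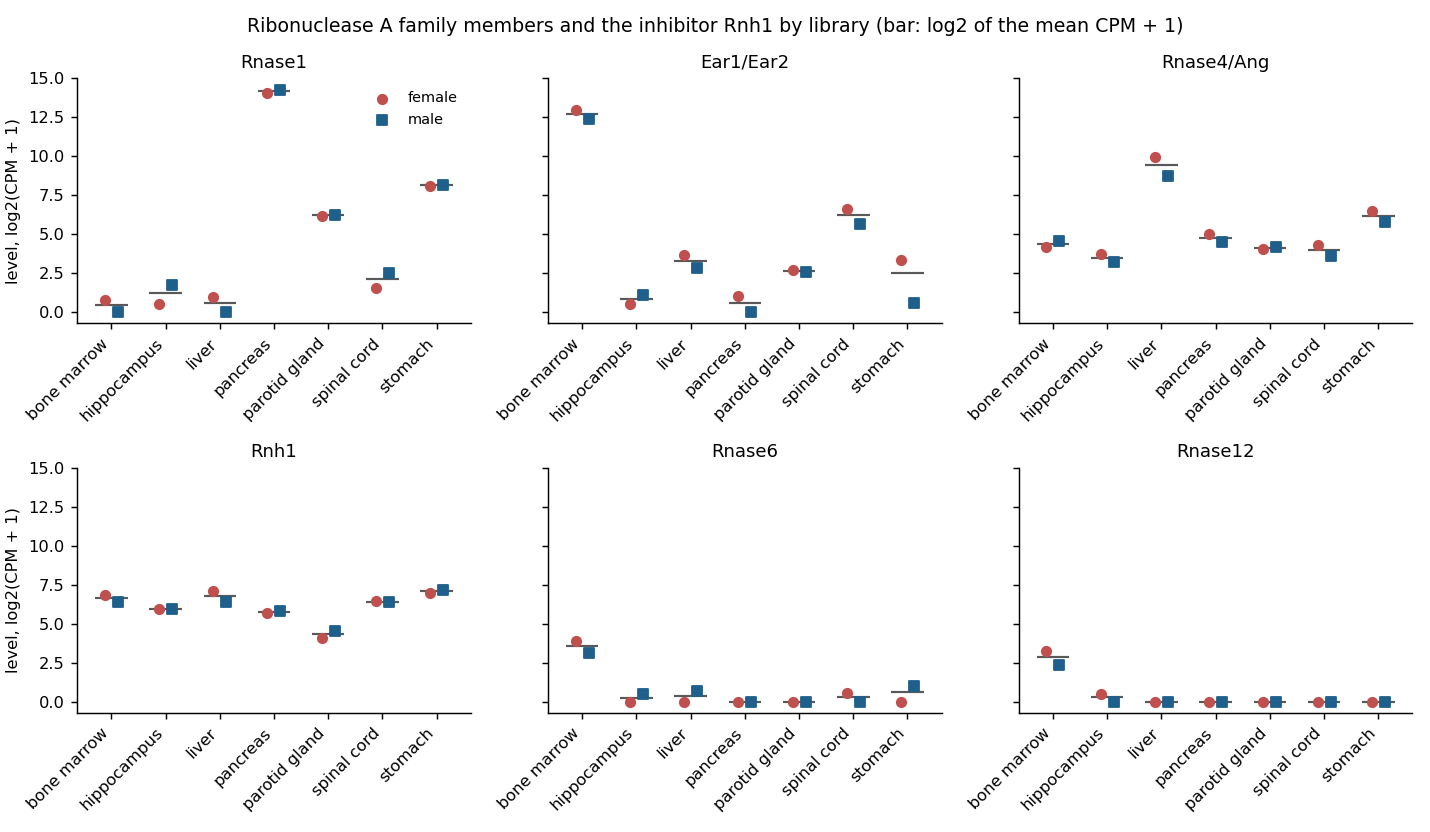
Level of the 6 tested members in each of the 14 libraries, on a log2(CPM + 1) axis; circles are female libraries, squares male libraries, and bars the log2 of the mean of both. Rnase1 peaks in pancreas at 18561 CPM, Ear1/Ear2 in bone marrow at 6684 CPM and Rnase4/Ang in liver at 702 CPM, while Rnh1 stays between 15.8 and 142 CPM in all libraries.

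Rnase1 had 17109 CPM in the female and 20012 CPM in the male pancreas library, 18561 ± 2053 CPM on average. Stomach held 278 and 292 CPM and parotid gland 71.9 and 74.5 CPM. Every other library was at or below 4.78 CPM, and the male bone marrow and male liver libraries had no count. The libraries of pancreas, stomach and parotid gland did not overlap with one another or with the other 4 tissues, and pancreas held 98.1% of the summed tissue means. Against the mean of the other 6 tissues, log2 fold changes were 14.84 ± 0.47 (SE) in pancreas (adjusted p = 2.99e-14), 4.34 ± 0.45 in stomach (adjusted p = 4.42e-07) and 3.47 ± 0.47 in parotid gland (adjusted p = 2.29e-05). Of all tested genes, 6.33% were called higher in pancreas, 17.9% in stomach and 11.1% in parotid gland. The sizes rest on the scaling: library totals in place of TMM factors gave 11.81 for pancreas, 4.79 for stomach and 2.51 for parotid gland. Without the female liver library, stomach moved to 4.95 and parotid gland to 4.07. Rnase1 was called lower in bone marrow, hippocampus, liver and spinal cord, where it had 2, 7, 2 and 14 counts in both libraries together. Those 4 calls rest on few counts: without the female liver library, 3 of them were no longer called, and without the female bone marrow library, again 3.

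In the order of levels, pancreas exceeded stomach by 9.01 ± 0.86 on the log2 scale (adjusted p = 8.60e-07, with 11.6% of tested genes called between these tissues). Stomach and parotid gland, the next pair, differed by 0.74 ± 0.61, which was not called (adjusted p = 0.469, with 16.7% of genes called), although the CPM of their libraries do not overlap. Parotid gland exceeded spinal cord by 6.55 ± 0.83 (adjusted p = 6.78e-06, with 37.5% of genes called). Below it, spinal cord, hippocampus, liver and bone marrow overlapped and none was called different from the next, in pairs of tissues where 6.38%, 52.3% and 40.3% of genes were called. Scaled to library totals, pancreas exceeded stomach by 6.02 ± 0.64 and parotid gland exceeded spinal cord by 4.44 ± 0.68. Stomach was then also called above parotid gland, by 1.96 ± 0.54 (adjusted p = 0.00637).

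The digestive enzymes of pancreatic acinar cells were set beside Rnase1 in stomach and parotid gland. In stomach, Rnase1 was at 1.53% of its mean level in pancreas. The 5 acinar markers found were there at between 0.45% (Ctrb1, chymotrypsinogen) and 2.05% (Cela1, elastase). Among these 5, Cela1 alone lay above Rnase1, and the other markers lay below it. Pancreatic enzymes outside this marker set did not all keep to that range. Pla2g1b was at 19826 CPM in stomach and 594 CPM in pancreas. Cpb1 was at 171 CPM in stomach and 11081 CPM in pancreas, and Cel at 155 and 16693 CPM. In parotid gland Rnase1 was at 0.395% of its pancreatic level. The same markers (Prss2, Ctrb1, Cela1, Cpa1 and Pnlip) were there at 0.0028% to 0.0057%. Per 1000 counts of these markers together, Rnase1 had 63.4 and 57.2 counts in the pancreas libraries, 142 and 156 in stomach, and 4824 and 8063 in parotid gland, where the markers summed to only 51 and 32 counts. The part of acinar RNA in the stomach value was not tested. In parotid gland the acinar markers were near 0.

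**Figure D2:**
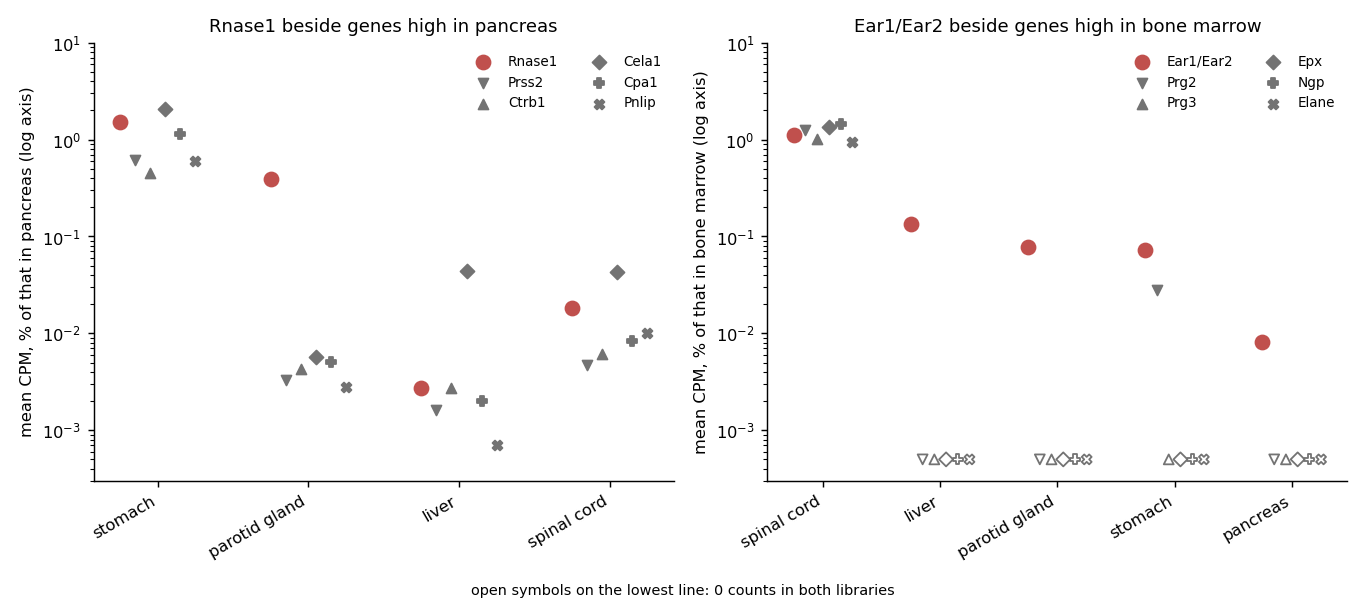
Mean CPM of Rnase1 (left) and Ear1/Ear2 (right) in other tissues, as a percent of the mean CPM in pancreas or bone marrow, on a log axis, beside 5 genes that are high in the same source tissue; open symbols mark 0 counts in both libraries. In stomach Rnase1 lies below Cela1 and above the other acinar markers, and in parotid gland above all of them, at 0.395%. Ear1/Ear2 lies among the marrow genes in spinal cord, at 1.12%.

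The second Rnase1 tag took 18.3% of the counts of both tags in the female and 18.0% in the male pancreas library (exact 95% intervals 18.0% to 18.7% and 17.7% to 18.4%). Its share in parotid gland was 15.85% and 15.95%, with intervals that reach from 11.5% to 21.0%. In stomach it was 23.7% in the female library (20.5% to 27.2%) and 6.69% in the male library (4.73% to 9.14%). The pancreas and parotid libraries thus held like shares within counting error, and the stomach libraries did not. Another tag of the cluster had 1078 counts, of which 458 and 594 came from pancreas. These intervals and the floor for 0 counts cover counting error only.

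Ear1/Ear2 had 7996 CPM in the female and 5371 CPM in the male bone marrow library, 6684 ± 1856 CPM on average. Spinal cord followed with 99.6 and 50.2 CPM, then liver with 11.9 and 6.05 CPM. Parotid gland had 5.55 and 4.91 CPM, and stomach 9.10 CPM in the female but 0.520 CPM in the male library. Hippocampus (1 and 3 counts) and pancreas (3 and 0 counts) were at or near the floor. The marrow libraries lay above all others, and marrow held 98.6% of the summed tissue means.

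Against the other 6 tissues, Ear1/Ear2 was higher in bone marrow by 9.94 ± 0.35 on the log2 scale (adjusted p = 7.43e-13), where 19.6% of all tested genes were called higher. It was also called higher in spinal cord, by 1.44 ± 0.41 (adjusted p = 0.00836, 27.3% of genes called higher). It was called lower in hippocampus, by -5.76 ± 0.75 (12.9% of genes), and in stomach, by -2.14 ± 0.59 (3.93% of genes). The call in spinal cord was lost without the female spinal cord library (adjusted p = 0.0860) or the male one (adjusted p = 0.0548). The calls in hippocampus and stomach were lost without the female pancreas library (-4.76 and -1.14), since pancreas then has no count, and bone marrow and spinal cord moved to 10.93 and 2.44. The hippocampus value was -4.71 without the female and -7.05 without the male hippocampus library. The stomach value was -4.85 without the female and -1.39 without the male stomach library. With library totals the values were 10.57 in bone marrow, 2.94 in spinal cord, -4.48 in hippocampus and -1.76 in stomach, all called. In the order of levels, bone marrow exceeded spinal cord by 7.28 ± 0.66 (adjusted p = 1.17e-07, 50.3% of genes called), and spinal cord exceeded liver by 1.81 ± 0.57 (adjusted p = 0.0132, 48.7% of genes called). Liver and parotid gland differed by -0.19 ± 0.62, and parotid gland and stomach by 1.45 ± 0.67. Neither was called, where 23.5% and 16.7% of genes were. Stomach exceeded hippocampus by 3.10 ± 0.88 (46.1% of genes called), although their libraries overlap in CPM. With library totals bone marrow minus spinal cord was 6.54, spinal cord minus liver 3.05 and stomach minus hippocampus 2.34. Liver minus parotid gland turned to 0.69, and parotid gland minus stomach was 0.28, neither called. Scaled to library totals, Ear1/Ear2 was also called lower in pancreas.

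Genes of eosinophil granules were set beside Ear1/Ear2 in the same way. In spinal cord Ear1/Ear2 was at 1.12% of its marrow level, Prg2 (major basic protein) at 1.24%, Prg3 at 1.01% and Epx (eosinophil peroxidase) at 1.35%. The neutrophil granule genes Ngp and Elane (neutrophil elastase) were at like percentages there, 1.46% and 0.942%, as was the erythroid gene Alas2 at 1.28%. Other markers spread more widely. Ltf was at 16.5 CPM in spinal cord and 791 CPM in bone marrow, and Camp at 30.2 and 1952 CPM. The eosinophil marker Ccr3 had 3 and 0 counts in the spinal cord libraries. The part of marrow RNA in the Ear1/Ear2 value of spinal cord was not tested. In liver and parotid gland the eosinophil markers Prg2, Prg3, Epx and Ccr3 had 0 counts in every library, while Ear1/Ear2 had 24 and 20 counts in liver and 19 and 17 in parotid gland. A further marker, Il5ra, had 1 count in bone marrow and says nothing of other tissues. Neutrophil markers summed to 7 and 1 counts in liver and 12 and 2 in parotid gland. The macrophage markers found (Adgre1, Cd163, Marco and Clec4f) summed to 196 and 112 CPM in liver, of which Clec4f, a Kupffer cell gene, made up 123 CPM on average, and to 9.06 and 11.3 CPM in parotid gland. They summed to 111 and 164 CPM in bone marrow, and to 8.004 and 11.9 CPM in hippocampus, where Ear1/Ear2 had 1 and 3 counts. Their part in the Ear1/Ear2 counts was not tested. Per 1000 counts of the eosinophil markers, Ear1/Ear2 had 5230 and 4860 counts in bone marrow and 3923 and 6563 in spinal cord. The markers summed to 4173 and 3013 counts in bone marrow but to only 52 and 16 in spinal cord.

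Of the list of eosinophil granule and lineage genes, 10 passed the filter on low counts, most of them through bone marrow, so their calls in that tissue are not counted here. Its most abundant genes were Prg2 (783 CPM in bone marrow), Epx (306 CPM), Cebpa and Prg3 (192 CPM). Cebpa, a transcription factor of granulocytes and hepatocytes, was highest in liver, at 146 CPM. In spinal cord 3 of the 10 were called higher (Prg2, Prg3 and Epx) and 1 lower (Cebpa), near the shares over all tested genes, 27.3% and 8.67%.

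Near-identical tags of the Ear genes were separated by a few bases. The tags shown here lie at another DpnII site, for which the files use class code 5 in Ear1/Ear2 and Ear6 and code 1 in Ear11. Capitals mark the bases that differ from the Ear1/Ear2 tag.

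Ear1/Ear2, other site: gatcatagtagtgaagagac
Ear6: gatcatagtagtgaagaACc
Ear11: gatcatagtTgGgaagaACc

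Counting from the G of GATC as position 1, the Ear6 tag carries G18A and A19C, and the Ear11 tag A10T, T12G, G18A and A19C. They had 370 counts for Ear1/Ear2, 119 for Ear6 and 9 for Ear11. Of the 3 tags, that of Ear11 alone has a code that enters the sums. The Ear12 tag had 11 counts, all in bone marrow (6 and 5), and differs by T6G from an Ear1/Ear2 tag with 62 counts. Whether the one was read from the other was not tested.

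Ear1 and Ear2 share a cluster, and its main tag carries an accession of Ear1. Whether transcripts of Ear2 give the same tag was not tested. On the reverse strand there is a tag with an accession of each gene. The capital marks the base that differs, A11G.

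Ear1 reverse: gatcttcttgAttggtatct
Ear2 reverse: gatcttcttgGttggtatct

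The Ear1 reverse tag had 89 counts, 56 and 33 of them in the bone marrow libraries. The Ear2 reverse tag had 88 counts, 60 and 23 in bone marrow. Counts assigned to the pair thus come with reverse tags of both genes at nearly equal numbers, but the split of the main tag between them cannot be read from these files.

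Rnase4/Ang was highest in liver, with 984 CPM in the female and 419 CPM in the male library (702 ± 400 CPM). Stomach had 90.6 and 54.1 CPM. The other tissues lay close together, with pancreas at 31.1 and 22.2 CPM, bone marrow at 17.2 and 22.4 CPM, spinal cord at 18.6 and 11.5 CPM, parotid gland at 15.5 and 17.6 CPM, and hippocampus at 12.2 and 8.31 CPM. Both liver libraries were above the other 12, and both stomach libraries above the 10 that remain, while pancreas, marrow, spinal cord, parotid gland and hippocampus form a chain of levels that overlap or nearly touch. In liver the log2 fold change against the other 6 was 4.87 ± 0.23 (adjusted p = 1.98e-12), where 18.5% of all tested genes were called higher. It was called lower in bone marrow (14.3% of genes), hippocampus (12.9%) and spinal cord (8.67%), with -1.56 ± 0.34, -3.44 ± 0.39 and -2.95 ± 0.37. The call in bone marrow was lost without the female marrow library (-1.13, adjusted p = 0.101). Liver exceeded stomach, the next in order, by 3.53 ± 0.41 (adjusted p = 1.89e-06, 32.2% of genes called).

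The direction in pancreas depended on the scaling. With the TMM factors of edgeR, Rnase4/Ang was called higher in pancreas, by 2.56 ± 0.27 (adjusted p = 1.30e-06). Scaled to library totals it was lower, by -0.47 ± 0.33, and not called (adjusted p = 0.224). The factors of the pancreas libraries were 0.184 and 0.147, against 2.25 to 2.49 in hippocampus and spinal cord. The median log2 fold change of all tested genes in pancreas was -0.59 with TMM and -3.26 with library totals. Relative to that median, Rnase4/Ang was higher by 3.15 with TMM and by 2.78 with library totals. The same holds for its place in the order: the value of stomach minus pancreas was -1.55 with TMM and 1.42 with library totals, both called. For bone marrow, hippocampus and spinal cord both scalings gave a lower value. Library totals gave -2.08 in hippocampus, -1.45 in spinal cord and -0.91 in bone marrow, the last under the fold for a call. The steps further down the order also rest on the scaling. Pancreas minus bone marrow was 3.53 with TMM and 0.37 with library totals, bone marrow minus parotid gland -1.12 and 0.27, and parotid gland minus spinal cord 2.31 and 0.20. With TMM all of these were called, where 23.1%, 33.5% and 37.5% of genes were, and with library totals none. In stomach and parotid gland Rnase4/Ang was not called with TMM (0.76 and -0.25), and was with library totals (1.18 and -1.22).

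**Figure D3:**
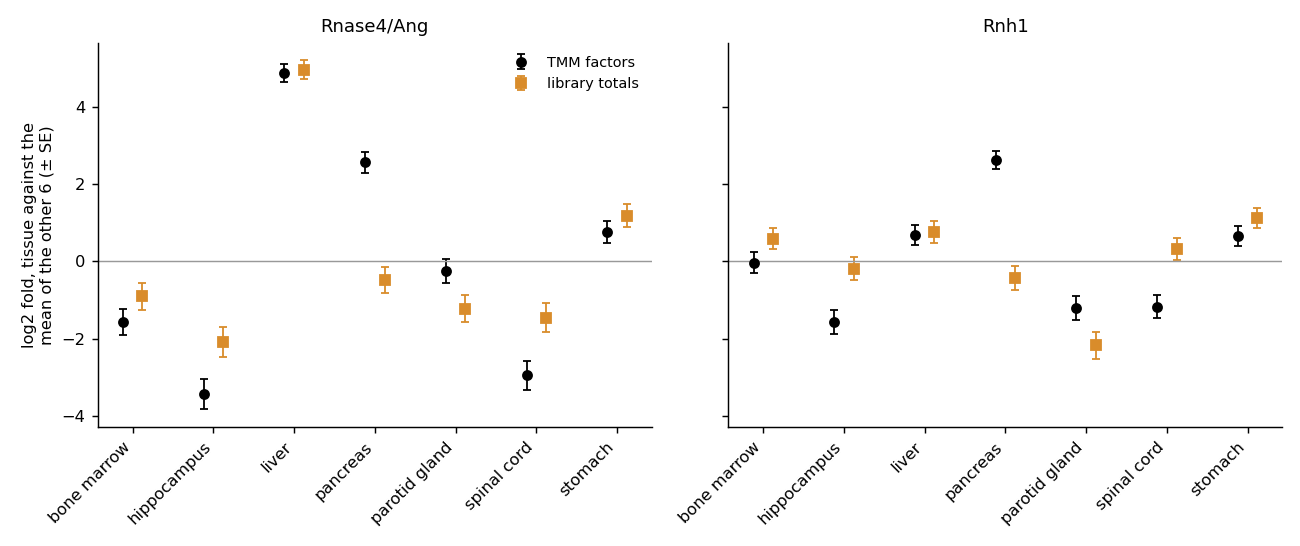
Log2 fold change of Rnase4/Ang (left) and Rnh1 (right) in each tissue against the mean of the other 6, with its standard error, scaled with TMM factors (circles) or library totals (squares). The liver value of Rnase4/Ang stays near 4.9 under both, while both genes change sign in pancreas, and Rnh1 also in spinal cord and, near 0, in bone marrow (-0.04 and 0.59).

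The tags of Rnase4 and Ang stood in different ratios in different tissues. Of the counts of both tags, Ang took 32.9% in the female liver library (30.8% to 35.0%, exact 95% interval) and 26.7% in the male one (24.4% to 29.2%). In pancreas it took 17.1% and 20.7%, on 82 and 58 counts. In bone marrow, hippocampus, parotid gland and spinal cord the share was between 0% and 10.53%, on 21 to 61 counts a library. The value of 0 is that of the male spinal cord library, 0 of 24 counts, with an interval that reaches 14.2%. The intervals of both liver libraries lie above those of both marrow and both parotid libraries. Stomach had 5.31% in the female (2.68% to 9.31%) and 43.3% in the male library (33.3% to 53.7%), which do not overlap. The liver intervals do not overlap each other either. Fitted as genes of their own, the Ang tag was higher in liver by 6.86 ± 0.38 and the Rnase4 tag by 4.51 ± 0.25 on the log2 scale, both called; the difference between them was not tested. In CPM, the Ang tag was at 320 and 111 in liver, and the Rnase4 tag at 652 and 304.

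**Figure D4:**
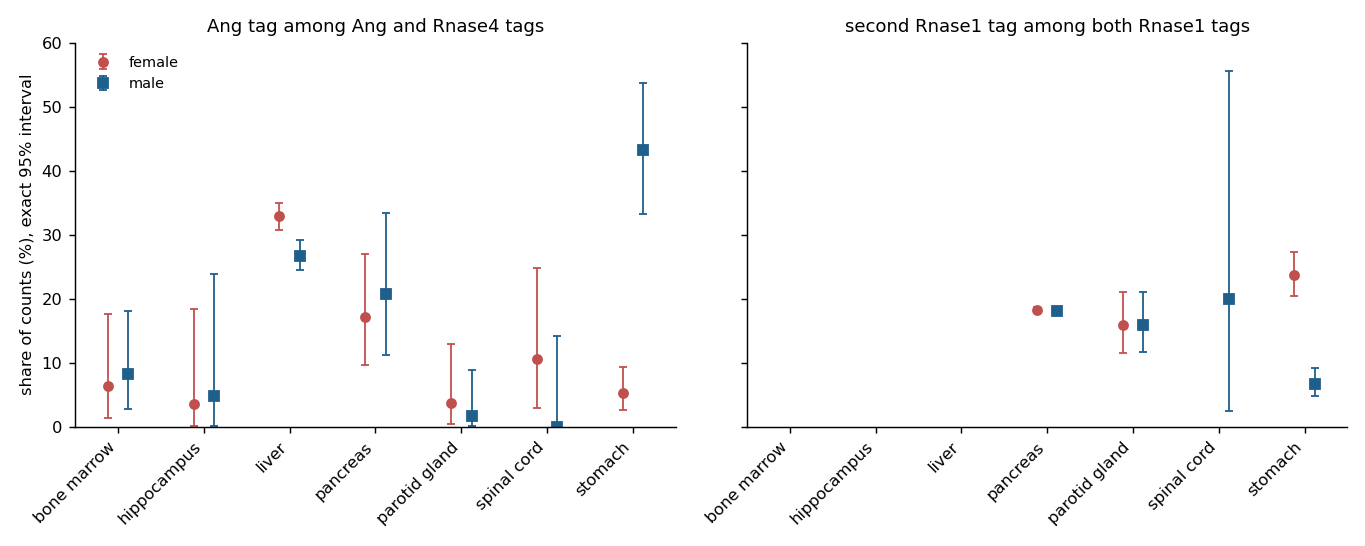
Share of the Ang tag among the Ang and Rnase4 tags (left), and of the second Rnase1 tag among both Rnase1 tags (right), in each library with at least 10 counts of the pair; bars are exact 95% binomial intervals. The stomach libraries lie apart from each other in both panels, at 5.31% and 43.3% for Ang and at 23.7% and 6.69% for the second Rnase1 tag.

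In the RefSeq annotation of GRCm38.p6 the 2 genes start at the same base. Rnase4 spans chr14:51091077-51106151 and Ang spans chr14:51091077-51102009, both on the plus strand, and their promoter windows around that start are 1 sequence, with 300 of 300 bases alike. It is shown because both tags are highest in liver. It covers chr14:51090827-51091126, and none of the 5 motifs searched, on both strands, is in it. The TATA box was searched as TATAAA, which 13.6% of all 32851 windows hold. The HNF1 motif was searched as GTTAAT, held by 7.10%. The C/EBP motif was searched as TTGCNNAA, held by 10.8%. An E-box was searched as CAGCTG, held by 16.3%. The GATA motif was searched as AGATAA, held by 11.2%. No overlap between these motifs was removed.

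Rnase4 and Ang promoter: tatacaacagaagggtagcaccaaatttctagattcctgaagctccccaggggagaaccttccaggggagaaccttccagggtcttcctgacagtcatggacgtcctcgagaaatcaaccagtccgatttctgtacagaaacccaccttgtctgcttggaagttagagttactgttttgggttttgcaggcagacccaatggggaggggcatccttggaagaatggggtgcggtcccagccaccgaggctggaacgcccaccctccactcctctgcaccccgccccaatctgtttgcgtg

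Ear1 (chr14:43818765-43819639) and Ear2 (chr14:44102654-44103531) each have a window of their own, and the 2 are alike at 268 of 298 compared bases, 89.9%. Each holds 1 match to the C/EBP motif, in capitals, at 92 and 90 bases before the start. The windows are shown because the pair is counted as 1 cluster. They cover chr14:43819590-43819889 on the minus strand and chr14:44102404-44102703 on the plus strand.

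Ear1 promoter: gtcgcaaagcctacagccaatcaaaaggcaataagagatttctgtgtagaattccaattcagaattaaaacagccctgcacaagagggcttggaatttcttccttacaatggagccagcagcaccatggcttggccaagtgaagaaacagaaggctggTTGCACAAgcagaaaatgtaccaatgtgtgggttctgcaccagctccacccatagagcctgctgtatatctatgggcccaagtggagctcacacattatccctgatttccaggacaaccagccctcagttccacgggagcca
Ear2 promoter: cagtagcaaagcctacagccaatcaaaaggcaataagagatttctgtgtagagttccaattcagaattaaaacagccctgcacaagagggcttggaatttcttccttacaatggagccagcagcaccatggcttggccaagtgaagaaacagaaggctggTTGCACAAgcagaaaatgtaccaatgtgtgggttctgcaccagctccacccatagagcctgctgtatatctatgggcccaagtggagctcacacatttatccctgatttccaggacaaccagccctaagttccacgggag

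All family members with a position there lie on chromosome 14, and Rnh1 lies on chromosome 7. The window of another annotated Rnase4 start, chr14:51095750-51096049, holds the C/EBP motif at 135 and the E-box at 142 bases before that start. The Rnase1 window holds the GATA motif at 91 bases before the start. These matches describe the letters only.

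Rnase6 and Rnase12 were low and nearly confined to bone marrow. Rnase6 had 37 and 21 counts in marrow (13.6 and 7.70 CPM) and 6 counts in the other 12 libraries together. Rnase12, which its title calls non-active, had 23 and 11 counts in marrow (8.43 and 4.03 CPM) and 1 elsewhere. Bone marrow held 90.6% of the Rnase6 counts (exact 95% interval 80.7% to 96.5%) and 97.1% of the Rnase12 counts (85.1% to 99.9%), while the marrow libraries hold 15.0% of all gene counts. Both passed the filter on low counts only through bone marrow, so that a test of bone marrow against the other tissues adds nothing to these counts, and no fold or p is given.

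The 4 members that could not be tested had few counts. Ear11 had 9 (5 in bone marrow, 3 in the female stomach and 1 in the male pancreas library), Ear12 had 11, Ang4 had 2 and Ang2 had 3, all of the last in the female liver library. The Ang2 tag differs from that of Ang by 1 base, G17T, and the Ang tag had 644 counts in that library. Whether the one was read from the other was not tested.

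Rnh1, which holds these enzymes inactive in the cytosol, was spread over all tissues, with 24.0% of the summed tissue means in stomach, its highest. Stomach had 125 and 142 CPM, liver 135 and 82.2, bone marrow 114 and 82.2, spinal cord 86.0 and 81.3, hippocampus 61.5 and 61.3, pancreas 50.3 and 56.2, and parotid gland 15.8 and 22.0. The parotid libraries lay below the other 12. In parotid gland it was called lower by -1.20 ± 0.31 (adjusted p = 0.0106), where 3.86% of all genes were called lower, but not without either parotid library. With TMM, and not with library totals, it was called higher in pancreas (2.62 ± 0.24, adjusted p = 1.81e-07) and lower in hippocampus (-1.56 ± 0.31, adjusted p = 0.000387) and spinal cord (-1.18 ± 0.30, adjusted p = 0.00385). The call in spinal cord was also lost without the female (adjusted p = 0.0826) or the male spinal cord library (adjusted p = 0.0954). Library totals gave -0.43 for pancreas, -0.19 for hippocampus and 0.33 for spinal cord, none of them called. They also called Rnh1 lower in parotid gland, by -2.17 (adjusted p = 0.000106 by edgeR). In stomach they called it higher (1.12, adjusted p = 0.00227), where TMM gave 0.67 and no call. Relative to the median of all genes, its value in pancreas was 3.21 with TMM and 2.83 with library totals, and in spinal cord -1.43 and -1.36. Stomach, liver, bone marrow and spinal cord did not differ from their neighbours in the order of levels by a called difference. From stomach down to spinal cord, 32.2%, 40.3% and 50.3% of genes were called between these neighbours. Bone marrow minus spinal cord was 0.98 ± 0.36 with TMM (adjusted p = 0.0296 by edgeR), just under the fold for a call, and 0.22 with library totals. Pancreas was called above hippocampus with TMM, with a value of hippocampus minus pancreas of -3.58 on the log2 scale (28.4% of genes called), where library totals gave 0.20 and no call. Pancreas was called above parotid gland under both, by 3.27 and 1.49 (6.31% of genes called). Spinal cord and hippocampus, between which 6.38% of genes were called, differed by 0.33 ± 0.36.

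A tag stands for 1 transcript whatever its length, so the counts of the 9 ribonucleases and of Rnh1 can be set side by side, apart from any difference in how well a site is captured. In pancreas the ribonucleases summed to 341 and 357 times the Rnh1 level, and in bone marrow to 70.8 and 65.8 times. In liver the ratio was 7.37 and 5.17, in parotid gland 5.89 and 4.42, and in stomach 3.02 and 2.45. It was 1.40 and 0.824 in spinal cord and 0.219 and 0.200 in hippocampus, where Rnh1 exceeded the whole family in both libraries. These are levels of RNA in whole tissue and say nothing of which cells hold them.

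Ribonucleases of other families were counted from a list. Of its 19 tested genes, Rnh1 among them, 5 were called higher and 2 lower in bone marrow, where 19.6% and 14.3% of all genes were. In parotid gland 3 were higher and 1 lower, where 11.1% and 3.86% of all genes were. In hippocampus 0 were called higher and 5 lower, where 28.0% and 12.9% of all genes were. Spinal cord had 0 higher and 3 lower, where 27.3% and 8.67% of all genes were. Liver had 1 higher and 2 lower (18.5% and 10.1% of all genes). Pancreas had 3 higher and 0 lower (6.33% and 3.24% of all genes), and stomach 1 of each (17.9% and 3.93%). Its most abundant genes were Rnasek, Rnh1, Rnaset2b and Rnaseh2c. Rnasek, an endoribonuclease of membranes, was at 351 and 368 CPM in hippocampus and spinal cord and at 13.1 CPM in pancreas, and was not called in any of the 7 tissues. Rnaset2b, a lysosomal ribonuclease of the T2 family, was highest in liver at 130 CPM and called higher there (1.65 ± 0.22). Rnaseh2c, a subunit of ribonuclease H2, was called higher in bone marrow at 92.9 CPM. The list of other secreted antimicrobial or pancreatic hydrolases holds mostly enzymes chosen as pancreatic. Several of them had few counts outside pancreas and stomach, so the number called higher in these tissues is not given. Its most abundant genes were Ctrb1, Prss2, Amy1 and Pnlip. Amy1, the salivary amylase, was called higher in parotid gland, its highest tissue (87286 CPM), and in pancreas (1788 CPM). It was called lower in bone marrow, hippocampus, spinal cord and stomach.

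The genes with the most similar profiles were taken as the 5 with the highest Pearson correlation of log2(CPM + 1) over the 14 libraries. The libraries of a tissue are not independent points and share their depth and composition, so the coefficients only describe. For Rnase1 these were pancreatic amylase 2 (r = 0.959), the gene 2210010C04Rik (0.956), the cluster titled chymotrypsin C, whose accession RefSeq names Cela2a (0.943), Pnliprp1 (0.942) and Ctrb1 (0.941). For Ear1/Ear2 they were Itgb7 (0.975), Klhl6 (0.973), Rac2 (0.973), Ifi209 (0.967) and Retnlg (0.965), the last titled resistin like alpha in the files. For Rnase4/Ang they were Dio1 (0.972), Anks4b (0.972), apolipoprotein B (0.970), Rdh7 (0.968) and Adh1 (0.967). Dio1 activates thyroid hormone, and Adh1 oxidises alcohols in liver.

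For Rnase6 the most similar were the RIKEN gene I830077J02 (0.988), Padi4 (0.981), Gpr171 (0.980), Ccne2 (0.975) and Cd27 (0.974). For Rnase12 they were Itgb2l (0.990), Gcsam (0.989), Trem1 (0.985), Kel (0.982) and 1 cluster with no name (0.980). The genes named for these 2 members were at 6.41 to 25.8 CPM in bone marrow. Rnh1 had no gene above 0.884 (a cluster titled protein tyrosine phosphatase-like, member a), followed by Hspa5, an endoplasmic reticulum chaperone (0.873), Pgap6 (0.871), Bmp2 (0.840) and a transcribed locus with no name (0.831).

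Between the sexes, no member was called over the 7 tissues by edgeR, and 9 of 14682 genes were, 0.0613%. At an unadjusted p under 0.05, edgeR had 1 member, and DESeq2 and limma voom called 0 after adjustment. It was Ear1/Ear2, lower in the male library in 6 of 7 tissues, by -0.88 ± 0.36 (adjusted p = 0.9999 by edgeR). Rnase4/Ang was lower in the male library in 5 of 7 tissues (-0.38 ± 0.21), with the largest gap in CPM in liver (984 against 419), where the fitted difference was -0.85 ± 0.53 and was not called.

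Within single tissues, 1 member was called. Outside stomach, 0 to 3 of all tested genes were called in a tissue, which is 0.00681% for hippocampus, parotid gland and spinal cord and 0.0204% for liver. The spread in those tests includes the stomach pair, and that in the stomach test does not. Ear1/Ear2 in stomach had 21 counts in the female and 1 count in the male library, -4.13 ± 1.12 on the log2 scale (adjusted p = 0.00181), in the tissue where 25.8% of all genes were called. The pair has no replicate, and its spread was taken from the other 6 pairs. Of the tags fitted as genes of their own, 3 more were called in stomach. The Rnase4 tag was lower in the male library (84.9 against 28.6 CPM, -1.70 ± 0.36) and the second Rnase1 tag too (65.4 against 18.7 CPM, -1.94 ± 0.51), while the Ang tag was higher (4.77 against 21.8 CPM, 2.05 ± 0.53). The first Rnase1 tag was not called (210 against 261 CPM, 0.18 ± 0.48). Summed over tags, Rnase4/Ang in stomach had an adjusted p of 0.0367 but a fold under 2 (-0.88 ± 0.34).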

How the data were processed

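Total RNA of each tissue was profiled by signature sequencing after DpnII and MmeI digestion, per the labels' protocols. The authors deposited, for each library, raw counts per 20-base tag with a class code, a gene cluster and a title. For the aligner, the genome build and the codes' legend, nothing is given in the sources used here. Codes 1 to 4 were taken as sense tags and codes 11 to 16 as reverse tags, which is an assumption. Counts were summed per cluster. The members and gene lists were chosen with earlier results of these data known.

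The counts were tested with edgeR 4.0.16 (R 4.3.3), by quasi-likelihood with TMM factors, a filter on low counts (filterByExpr) and a model of tissue and sex. A gene was called at an adjusted p (Benjamini-Hochberg) under 0.05 and a change of at least 2-fold, with no minimum fold for sex over 7 tissues. Standard errors were derived from the test, as the size of the log2 fold change divided by the square root of its F statistic. The sex difference within a tissue takes its spread from the other 6 pairs. The scripts were tested on simulated data. Alternatives were library totals, DESeq2 size factors, no filter, code 1 alone, DESeq2 1.42.0, limma voom 3.58.1, no sex term and each library left out, and, added after seeing the data, single tags. Intervals are exact (Clopper-Pearson).

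All members were named. The 5 genes with the most similar profile were named beside each tested member, and the 4 most abundant of each list. Promoter windows are those of RefSeq on GRCm38.p6. Tags with no cluster were not used in tests. Tables and plots used matplotlib 3.10.9, scipy 1.17.1 and pandas 2.3.3 in Python 3.11.15.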

Additional observations from a re-analysis of the deposited data

Results flagged for a closer look

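In stomach the difference between the male and the female library departed from that in the other 6 tissues for Ear1/Ear2 and for 3 single tags. The departure, on the log2 scale, was -3.46 ± 1.21 for Ear1/Ear2 (adjusted p = 0.0234 by edgeR), -1.42 ± 0.39 for the Rnase4 tag, 2.92 ± 0.59 for the Ang tag and -2.37 ± 0.59 for the second Rnase1 tag. Of all tested genes, 22.3% departed in the same way in this tissue, and the gastric markers summed to 87898 CPM in the female and 239862 CPM in the male library. The part of the makeup of the 2 stomach samples in these values was not tested.

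Tags outside the summed codes also carried counts of the family. Reverse tags had 3583 counts for Rnase1, 437 for Ear1/Ear2 and 431 for Rnase4/Ang, which is 3.51%, 1.18% and 10.4% of their sense counts. Tags of other codes had 251 counts for Rnase1 and 401 for Ear1/Ear2. Ear6, for which no tag of codes 1 to 4 was found, had 121 counts under another code and 158 in reverse. Bone marrow held 98.3% and 97.5% of these.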

How the results depend on the processing

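The 22 calls of member and tissue were 21 to 29 under the other settings and 17 to 24 with each library left out. The 14 calls between neighbouring tissues were 11 to 14. The call of a sex difference within a tissue ranged from 0 to 1 with a library left out, since without either stomach library that tissue has no pair. No member was called for sex over the 7 tissues in any setting. Of 500 values of 23 fold changes and their alternatives, 475 kept their direction and side of the threshold, 22 were no longer called, and 3 turned their direction, all with library totals: Rnase4/Ang in pancreas (-0.47), Rnh1 in pancreas (-0.43) and Rnh1 in spinal cord (0.33). The 23 fold changes were those called in the main fit, so an alternative could lose such a call but not add one. They include Rnase6 and Rnase12 in bone marrow, which passed the filter through that tissue alone. Fits with 1 library left out share most of their data, so the 500 values are not separate checks. With 2 libraries a tissue, lower calls of members near 0 counts rest on few reads.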
